A study of Mus musculus with 6 samples.

Results

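Matricellular proteins are secreted proteins that sit in the extracellular matrix, bind cell surface receptors, growth factors and proteases, and add little to the strength of the tissue. A set of 10 genes of this kind and of the provisional matrix of wounds were followed, chosen by name from the count table: Postn, Thbs1, Thbs2, Thbs4, Tnc, Sparc, Fn1, Cthrc1, Comp and Cilp. They are 10 of the 49315 genes in that table, and all 10 were abundant enough to be tested among 14370 genes. RNA came from mid-ventricular heart tissue of adult mice. Every mouse had carried an osmotic minipump that released Angiotensin II, a peptide that constricts vessels and raises blood pressure, for 28 days at a daily dose of 1 mg/kg. The mice were labelled either TET2KO, a deletion of the DNA dioxygenase gene Tet2 meant for endothelial cells (3 libraries), or wild type, WT (3 libraries). The infusion was common to both groups, so the values concern genotype labels within infused hearts. The series' design text calls the 3 libraries of a group biological replicates. The sources used here name neither the Cre driver nor the deleted exons, strain or sex, and hearts without the peptide were not analysed here.

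In the adult heart these genes are mostly quiet and are switched on by pressure overload, infarction or fibrosis. Fibroblasts are a main source: when they become myofibroblasts they secrete periostin, fibronectin and tenascin-C, while the thrombospondins and SPARC control how collagen is assembled and how latent TGF-beta is activated. Thrombospondin-1 is also stored in platelets, and thrombospondin-4 is made by stressed heart muscle cells. Whole tissue was measured, so fewer cells of one type and less RNA per cell cannot be told apart.

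Library totals lay between 26810691 and 30418909 counted reads in the libraries labelled TET2KO and between 22124844 and 26569073 in those labelled WT. Tet2 itself went against the labels, at 14.6, 8.01 and 10.4 CPM (counts scaled to library size with TMM factors) in libraries labelled TET2KO against 4.27, 4.33 and 3.08 CPM in libraries labelled WT (log2 fold change 1.49 ± 0.29, edgeR adjusted p = 0.0065). With the trend on transcript length described next removed, Tet2 stood at 0.27 ± 0.17 (adjusted p = 0.21) and did not pass. Gene-level counts of whole tissue need not show a fall where a single cell type carries a deletion. The cause of the higher Tet2 counts was not tested, nor was the correctness of the labels. Every direction given here is therefore that of the labels. Fold changes over all genes followed transcript length. A smooth trend on length and GC content was fitted to each library's log2 CPM minus the mean of each gene over the 6 libraries. It took up 60, 8.56 and 55.4% of the variance of these deviations in TET2KO replicates 1, 2 and 3. In those labelled WT it took up 47.6 to 50.8%. A library close to that mean can score low, so 8.56% does not measure how far TET2KO replicate 2 itself follows length. TET2KO replicate 2 had a Pearson's r across genes of 0.928 and 0.959 with TET2KO replicates 1 and 3, and of 0.958, 0.968 and 0.955 with WT replicates 1, 2 and 3. For these reasons a trend-removed value, from a fit with that trend (by longest transcript) taken out of each library, stands beside the value as counted.

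Because TET2 oxidises methylated cytosine next to guanine (CpG), promoter sequences are shown for 3 members with different results as counted. As counted, Thbs4, rich in CpG, was lower in the libraries labelled TET2KO, while of the CpG-poor pair Thbs2 was higher and Postn did not pass the test. With the trend removed Thbs2 did not pass (0.11 ± 0.16) and Postn was higher (1.09 ± 0.34). A link between CpG content and direction was not tested. The windows run from 250 bases before to 50 bases after a RefSeq transcript start (GRCm38.p6), 5′ to 3′ on the strand of the gene, and capitals mark every CpG.
Thbs4, minus strand, chr13:92794769-92795068: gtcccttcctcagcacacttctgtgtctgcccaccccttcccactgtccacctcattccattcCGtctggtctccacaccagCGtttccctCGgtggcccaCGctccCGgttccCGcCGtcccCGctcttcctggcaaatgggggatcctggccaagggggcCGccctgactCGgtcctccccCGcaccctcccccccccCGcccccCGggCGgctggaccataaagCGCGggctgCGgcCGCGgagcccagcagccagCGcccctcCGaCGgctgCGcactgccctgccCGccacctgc
Thbs2, minus strand, chr17:14694213-14694512: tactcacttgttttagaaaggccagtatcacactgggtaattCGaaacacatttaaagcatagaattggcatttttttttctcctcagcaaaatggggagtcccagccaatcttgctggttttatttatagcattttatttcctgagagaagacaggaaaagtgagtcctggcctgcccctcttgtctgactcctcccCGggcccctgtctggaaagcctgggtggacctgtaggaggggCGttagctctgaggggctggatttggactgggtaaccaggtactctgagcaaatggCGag
Postn, plus strand, chr3:54360857-54361156: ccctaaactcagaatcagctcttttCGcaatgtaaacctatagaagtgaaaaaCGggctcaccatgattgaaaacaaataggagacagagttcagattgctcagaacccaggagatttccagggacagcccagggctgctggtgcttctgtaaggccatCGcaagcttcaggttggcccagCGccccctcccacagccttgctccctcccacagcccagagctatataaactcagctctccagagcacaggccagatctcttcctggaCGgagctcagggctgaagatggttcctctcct

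The Thbs4 window held 24 CpG, more than 80.0% of 32851 promoter windows of this length, whose median was 7. The Thbs2 window held 4 and this Postn window 5. Among the 6 members with an entry (8 windows), Sparc and Cilp had 4 CpG each, the other Postn window had 4, and the Tnc windows had 10 and 16. The TATA box letters TATAAA, searched on both strands, were in the Thbs2 window, in the Postn window shown and in both Tnc windows. They were in 13.6% of all windows. The Tnc windows overlap and hold the same stretch, so they are not separate hits. In the Thbs2 window the letters lie on the strand opposite the gene. Distance from the transcript start was not considered, and an excess over all windows was not tested. GGAATG, the core bound by TEAD factors, was in the Thbs4 window alone among the 8 windows, against 14.7% of all windows. TGANTCA, bound by AP-1 factors, was in 0 of the 8, against 7.81% of all windows. DNA methylation and factor binding were not measured in these libraries.

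Of the 10 members, 5 were higher and 1 was lower in the libraries labelled TET2KO, and 4 did not pass edgeR's quasi-likelihood test with Benjamini-Hochberg adjustment over all tested genes. On the CPM scale the groups did not overlap for 4 of the 10 members (Thbs2, Thbs4, Sparc and Cilp), against 73.5% of all tested genes. The higher members were Comp, Fn1, Thbs1, Thbs2 and Cilp, by 2.03 to 3.66-fold, and the lower one was Thbs4, by 1.87-fold. Among all tested genes 62.9% passed, 33.4% higher and 29.4% lower, so the 6 of 10 members past the test are close to the share over all genes. The split over all genes was 4806 higher and 4231 lower with TMM, but 6534 and 2270 with total library size and 7160 and 1866 on log2(TPM + 1). The median log2 fold change of the 10 members (TET2KO over WT) was 0.87, against 0.046 over all tested genes, and -0.08 against -0.031 once the trend was removed. In the trend-removed fit 1 member was higher (Postn) and 1 lower (Thbs4), where 21.9% of all genes were higher and 24.3% lower. Thbs4 was the member that passed in both fits and in the same direction.

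Levels per transcript length, in the authors' TPM, put the same gene first in all 6 libraries. Sparc averaged 496 ± 26.5 TPM in libraries labelled TET2KO and 389 ± 38.2 TPM in libraries labelled WT (SD, n = 3 each) and made up 82.4 to 92.2% and 91.9 to 93.2% of the summed TPM of the 10 genes. In the libraries labelled TET2KO the order went on with Postn (22.9 ± 11.3), Cilp (21.0 ± 8.73), Thbs1 (10.8 ± 7.69), Thbs4 (7.86 ± 1.91), Thbs2 (4.78 ± 1.78), Fn1 (4.39 ± 3.07), Comp (3.15 ± 1.91), Cthrc1 (0.863 ± 0.410) and Tnc (0.525 ± 0.385). Below Sparc, every pair of neighbours in that order overlapped in the values of single libraries. In the libraries labelled WT, Thbs4 came second at 9.34 ± 1.48 TPM, within 1 SD of Postn at 8.81 ± 2.44 TPM. Cilp (6.54 ± 0.870), Thbs1 (2.55 ± 1.47), Thbs2 (1.33 ± 0.203), Cthrc1 (1.26 ± 0.825), Fn1 (0.890 ± 0.411), Comp (0.540 ± 0.209) and Tnc (0.229 ± 0.155) followed, and neighbours below Sparc overlapped except Cilp with Thbs1 and Comp with Tnc. Summed TPM of the 9 genes other than Sparc was 111, 39.7 and 77.9 in TET2KO replicates 1, 2 and 3 and 31.4, 37.5 and 25.6 in WT replicates 1, 2 and 3.

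**Figure D1:**
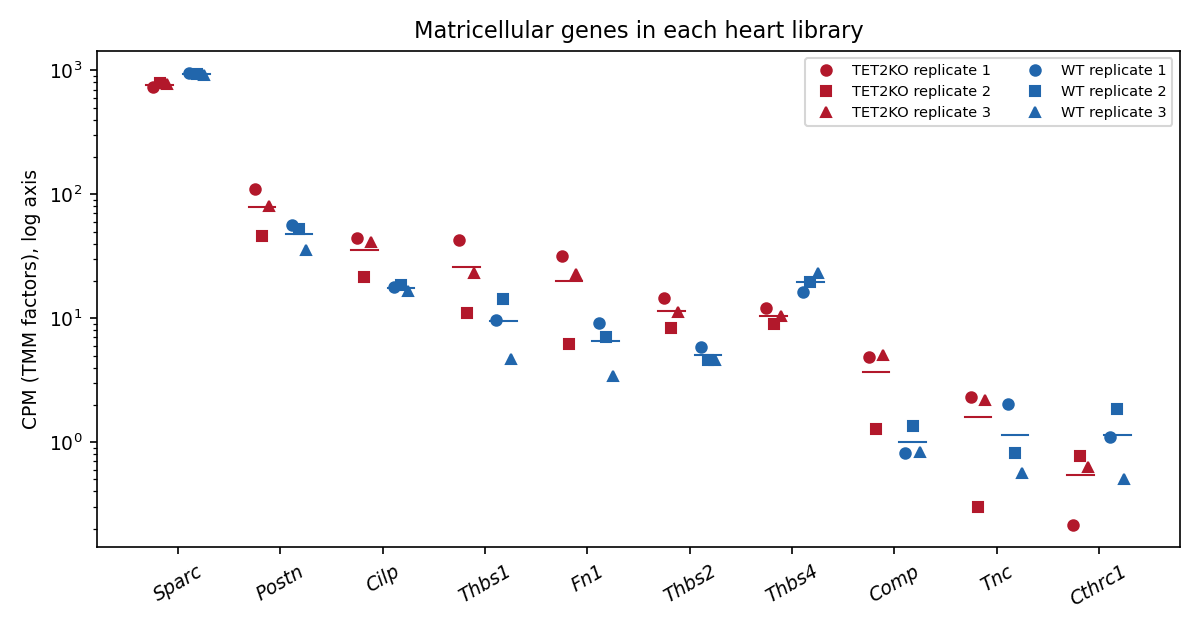
CPM of the 10 genes on a log axis, with 1 point per library (red TET2KO, left; blue WT, right; the marker gives the replicate number) and a line at each mean. Replicate 2 of TET2KO is the lowest of its group for 8 of the genes, and Thbs4 has all 3 TET2KO libraries below the WT libraries, at 8.94 to 12.0 in TET2KO against 16.2 to 23.1 CPM in WT.

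The thrombospondins split by gene. These are calcium-binding glycoproteins that form trimers (THBS1 and THBS2) or pentamers (THBS3, THBS4 and COMP). Thbs4 (ENSMUSG00000021702, GRCm38 chromosome 13, 92751590 to 92794818, minus strand, protein coding, 22 exons in its longest transcript of 3198 nt) had 12.0, 8.94 and 10.4 CPM in libraries labelled TET2KO, against 16.2, 19.5 and 23.1 CPM in libraries labelled WT. All 3 libraries labelled TET2KO lay below all 3 labelled WT. The log2 fold change was -0.90 ± 0.21 (SE, adjusted p = 0.0082), and the trend-removed value was -1.59 ± 0.16 (adjusted p = 0.004). On this gene the scaling mattered: with total library size it was -0.46 (adjusted p = 0.10) and on log2(TPM + 1) it was -0.23 (adjusted p = 0.35), and its TPM values overlapped between the groups.

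Thbs1 (chromosome 2, 118111876 to 118127133, plus strand, 5848 nt), an activator of latent TGF-beta and inhibitor of angiogenesis, had 43.1, 11.1 and 23.0 CPM in libraries labelled TET2KO, against 9.60, 14.3 and 4.70 CPM in libraries labelled WT. TET2KO replicate 2 fell inside the WT range. The log2 fold change of 1.42 ± 0.54 was just past the test (adjusted p = 0.049), and the trend-removed value was 0.13 ± 0.35 (adjusted p = 0.78). Of the 6 fits that leave out 1 library, Thbs1 passed only without TET2KO replicate 2 (1.79, adjusted p = 0.041) and without WT replicate 2 (1.83, adjusted p = 0.047). A long noncoding gene on the opposite strand, Gm29233, shares 208 exon bases with Thbs1, and the strand setting of the counting, not given in the sources used here, decides whether its reads were added.

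Thbs2 (chromosome 17, 14665500 to 14694235, minus strand, 5895 nt), which is needed for orderly collagen fibrils, had 14.6, 8.27 and 11.2 CPM in libraries labelled TET2KO, against 5.86, 4.62 and 4.59 CPM in libraries labelled WT. The groups did not overlap in CPM, and the gene was 2.26-fold higher (log2 fold change 1.18 ± 0.26, adjusted p = 0.0078). It passed in each of the 6 fits that leave out a library, with log2 fold changes between 0.99 and 1.38. The trend-removed value was 0.11 ± 0.16 with longest transcript length (adjusted p = 0.58) and 0.56 ± 0.19 with merged exon length (adjusted p = 0.035).

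Comp (chromosome 8, 70373558 to 70382066, plus strand, 2416 nt), cartilage oligomeric matrix protein, a pentameric thrombospondin of tendon and cartilage that binds collagen, had the largest log2 fold change as counted. With the trend removed that of Postn was larger, and on log2(TPM + 1) those of Thbs1 (1.60), Cilp (1.46) and Fn1 (1.34) exceeded that of Comp (1.30). Comp had 4.83, 1.27 and 5.02 CPM in libraries labelled TET2KO, against 0.816, 1.35 and 0.840 CPM in libraries labelled WT, from 179, 38 and 158 reads in TET2KO against 17, 33 and 15 reads in WT. TET2KO replicate 2 again lay within the WT range. The log2 fold change was 1.87 ± 0.54 (adjusted p = 0.018) and the trend-removed value 0.92 ± 0.40 (adjusted p = 0.089). Comp did not pass without TET2KO replicate 3 (1.64), without WT replicate 1 (1.73) or without WT replicate 3 (1.75). Without TET2KO replicate 2 it stood at 2.29 as counted (adjusted p = 2.2e-06) and at 1.21 after trend removal (adjusted p = 0.0011).

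Taking the 5 thrombospondin genes together, Thbs3 included, Thbs4 made up 23.2, 40.8 and 27.9% of their summed TPM in libraries labelled TET2KO, against 62.0, 60.2 and 77.1% in libraries labelled WT. The sum itself was 42.5, 14.9 and 27.4 TPM in TET2KO against 12.3, 16.9 and 13.3 TPM in WT. The TPM of Thbs4 overlapped between the groups, so its share also reflects the level of the other genes. The share of Thbs1 was 45.2, 27.5 and 33.4% in TET2KO against 19.9, 24.0 and 8.51% in WT, and that of Comp 10.4, 6.41 and 14.9% in TET2KO against 3.47, 4.63 and 3.11% in WT. Each of the 5 shares was without overlap between the groups (exact two-sided permutation test on each share, p = 0.1, the smallest that 3 against 3 allows). Shares of a single sum depend on each other, so these are not 5 separate results. The length and GC trend was not removed from them. Thbs4 was also set against Thbs3 and Postn, in comparisons chosen after the values were seen. The longest transcripts of Thbs4, Thbs3 and Postn measure 3198, 3190 and 3205 nt, but their merged exons measure 3289, 4823 and 8702 nt, so their lengths are alike on the first measure only. For Thbs3 the log2 fold change was 1.41 ± 0.46 (adjusted p = 0.030, trend-removed 0.36 ± 0.33). Reads of Thbs4 per read of Thbs3 numbered 2.87, 6.38 and 2.66 in libraries labelled TET2KO, against 19.8, 12.9 and 18.7 in libraries labelled WT. On the log2 scale the ratio differed by -2.21, without overlap between the groups. Thbs3 shares 318 exon bases with Mtx1 on the opposite strand, so some of its reads may belong there. Thbs4 reads per read of Postn were 0.108, 0.194 and 0.128 in TET2KO against 0.288, 0.370 and 0.644 in WT (difference -1.56). Of the other ratios computed, Thbs2 over Thbs1 overlapped between the groups (difference -0.22) and Sparc over Comp did not (difference -1.97). Because the Thbs4 ratios were chosen with their values known, their lack of overlap is a description and not a test.

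**Figure D2:**
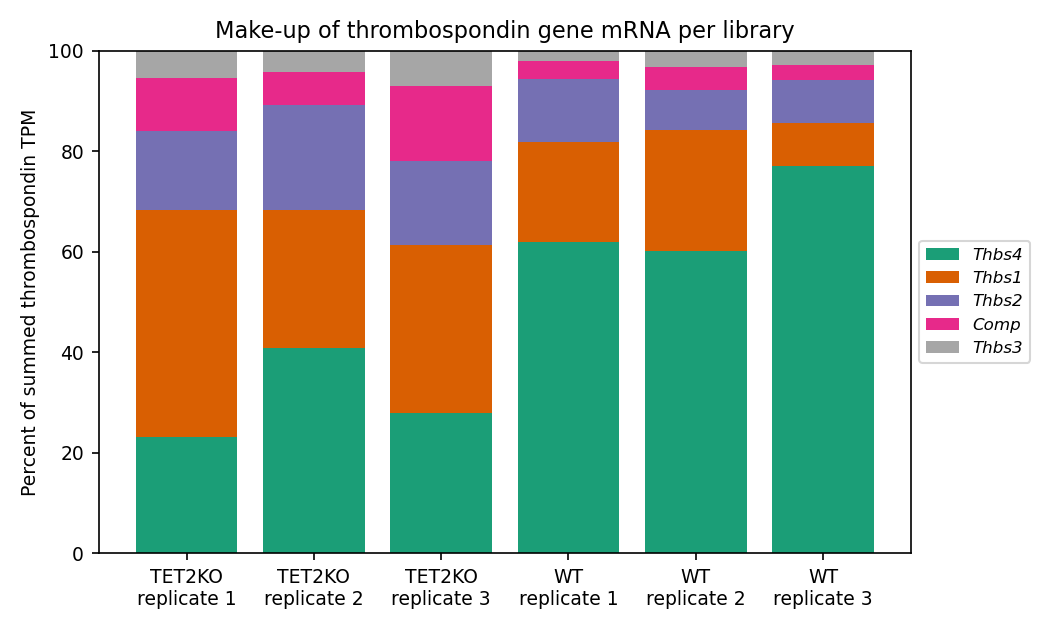
Stacked bars give the percent of summed TPM that each of 5 thrombospondin genes took in each library (TET2KO replicates 1 to 3, left; WT replicates 1 to 3, right). The Thbs4 segment is 23.2 to 40.8% in TET2KO and 60.2 to 77.1% in WT, and the Thbs1 segment 27.5 to 45.2% and 8.51 to 24.0%.

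Fn1, Tnc and Postn make the provisional and wound matrix on which fibroblasts migrate. Fn1 (chromosome 1, 71585520 to 71653200, minus strand, 46 exons, 8315 nt) encodes fibronectin, the RGD-bearing ligand of integrin alpha-5 beta-1. It had 31.6, 6.24 and 22.6 CPM in libraries labelled TET2KO, against 9.07, 7.07 and 3.42 CPM in libraries labelled WT. Replicates 1 and 3 of TET2KO were above every library labelled WT, and replicate 2 was not. The log2 fold change was 1.62 ± 0.58 (adjusted p = 0.041), while the trend-removed value had the other sign, -0.48 ± 0.28 (adjusted p = 0.19). Of the 6 fits that leave out a library, Fn1 passed only without TET2KO replicate 2 (2.06, adjusted p = 0.00027), and the values in the other 5 ran from 1.17 to 1.92. Fn1 shares 292 exon bases with Apol7d, annotated as antisense.

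Tnc (chromosome 4, 63959785 to 64047015, minus strand, 7106 nt), the anti-adhesive glycoprotein tenascin-C of healing tissue, was the member with the lowest mean level per length in both groups. It shares 176 exon bases with 8030451A03Rik on the other strand. Its reads numbered 86, 9 and 69 in libraries labelled TET2KO, against 42, 20 and 10 in libraries labelled WT, or 2.32, 0.300 and 2.19 CPM in TET2KO against 2.02, 0.818 and 0.560 CPM in WT. TET2KO replicate 2 held the lowest value of all 6 libraries. The log2 fold change of 0.51 ± 0.74 did not pass (adjusted p = 0.57), and the trend-removed value of -1.39 ± 0.51 had the other sign and did not pass either (adjusted p = 0.050). Without TET2KO replicate 2 the gene passed in opposite directions, at 1.01 as counted (adjusted p = 0.033) and at -1.08 after trend removal (adjusted p = 0.034).

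Postn (chromosome 3, 54361109 to 54391037, plus strand, 3205 nt) encodes periostin, which binds collagen and integrins and marks activated fibroblasts. Its CPM values were 111, 46.1 and 80.8 in libraries labelled TET2KO, against 56.3, 52.6 and 35.8 in libraries labelled WT. On this scale the groups overlapped through TET2KO replicate 2, and the log2 fold change of 0.72 ± 0.33 did not pass (adjusted p = 0.087). In TPM they did not overlap, with 34.5, 11.8 and 22.5 TPM in TET2KO against 10, 10.4 and 6 TPM in WT, and the gene passed on log2(TPM + 1) at 1.20 (adjusted p = 0.025). The length used for the trend decided the call: the value was 1.09 ± 0.34 with the longest transcript (adjusted p = 0.030) and 0.25 ± 0.24 with the merged exon length of 8702 nt (adjusted p = 0.41). Without TET2KO replicate 2 Postn passed as counted (1.01, adjusted p = 0.00013). Without TET2KO replicate 1 the value was 0.43 (adjusted p = 0.22).

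Cilp, Sparc and Cthrc1 are regulators of matrix deposition. Cilp (chromosome 9, 65265180 to 65280605, plus strand, 4153 nt), cartilage intermediate layer protein, binds TGF-beta and is made by cardiac fibroblasts. It had 44.2, 21.4 and 41.5 CPM in libraries labelled TET2KO, against 17.9, 18.4 and 16.6 CPM in libraries labelled WT, without overlap. Its log2 fold change was 1.02 ± 0.27 (adjusted p = 0.014). The trend-removed value was -0.06 ± 0.13 (adjusted p = 0.71) with the longest transcript and 0.49 ± 0.19 (adjusted p = 0.063) with merged exons. As counted, Cilp did not pass without WT replicate 1 (1.02, adjusted p = 0.051) or without WT replicate 3 (0.97, adjusted p = 0.059).

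Sparc (chromosome 11, 55394500 to 55423183, minus strand, 2300 nt) encodes osteonectin, a collagen chaperone made by fibroblasts and endothelial cells. It had 731, 796 and 778 CPM in libraries labelled TET2KO, against 947, 943 and 914 CPM in libraries labelled WT. The groups did not overlap, yet the log2 fold change was -0.28 ± 0.18, short of the threshold (adjusted p = 0.19). Its sign depended on scaling: in TPM the libraries labelled TET2KO stood above the others, at 522, 469 and 497 TPM in TET2KO against 388, 428 and 351 TPM in WT, with 0.35 on log2(TPM + 1) (adjusted p = 0.047) and 0.14 with total library size (adjusted p = 0.46). The median over all tested genes was itself 0.47 with total library size, against 0.046 with TMM. Cthrc1 (chromosome 15, 39076932 to 39087121, plus strand, 1166 nt), a secreted protein of activated fibroblasts after injury, had only 8, 23 and 20 reads in libraries labelled TET2KO, against 23, 45 and 9 reads in libraries labelled WT. Its CPM values overlapped, at 0.216, 0.767 and 0.635 in TET2KO against 1.10, 1.84 and 0.504 in WT, and the log2 fold change of -1.13 ± 0.58 did not pass (adjusted p = 0.12, trend-removed -0.10 ± 0.52). Without TET2KO replicate 2 it passed at -1.47 (adjusted p = 0.026).

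**Figure D3:**
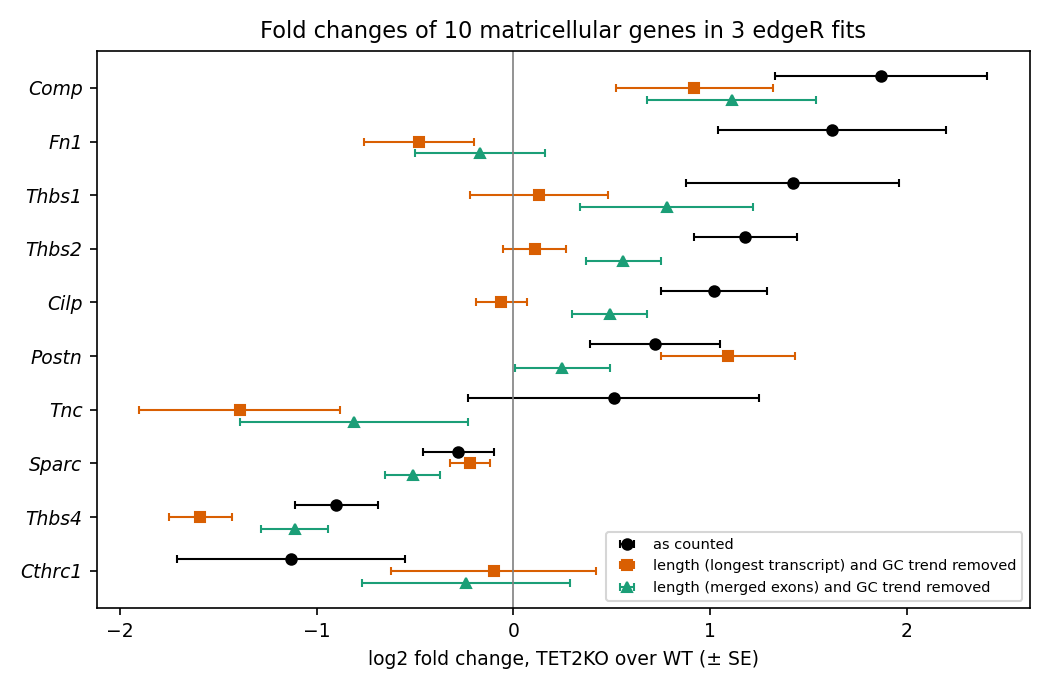
Log2 fold changes of TET2KO over WT with SE (horizontal axis) for the 10 genes in 3 edgeR fits: as counted (black), with the length and GC trend removed using the longest transcript (orange) and using merged exons (green). Thbs4 stays below 0 at -0.90, -1.59 and -1.11, Comp stays above 0 at 1.87, 0.92 and 1.11, and Fn1 is at 1.62, -0.48 and -0.17.

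The members range from 1166 nt (Cthrc1) to 8315 nt (Fn1), and most of them lay where tested genes of like length lay. When tested genes were split into 10 equal groups by longest transcript, the median log2 fold change ran from -1.29 in the shortest to 1.38 in the longest group. Fn1 stood at the 58.0 percentile of its length group, Thbs2 at 55.9, Thbs1 at 64.8, Cilp at 69.4, Postn at 65.3, Sparc at 45.5 and Cthrc1 at 32.1. Outside the interquartile range of their length groups were Comp (97.1 percentile, 2.04 above the group median on the log2 scale), Thbs4 (12.8 percentile, -1.19) and Tnc (19.8 percentile, -0.87). The length groups take no account of GC content, which is 59.93% in the longest transcript of Comp. The fitted length and GC trend (TET2KO minus WT, log2 scale) was 0.86 for Comp, 0.67 for Thbs4 and 1.67 for Tnc. The medians of their length groups were -0.17, 0.28 and 1.38. With the trend removed Comp stood at 0.92 ± 0.40 and did not pass. These percentiles describe the position of each gene and are not a test.

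**Figure D4:**
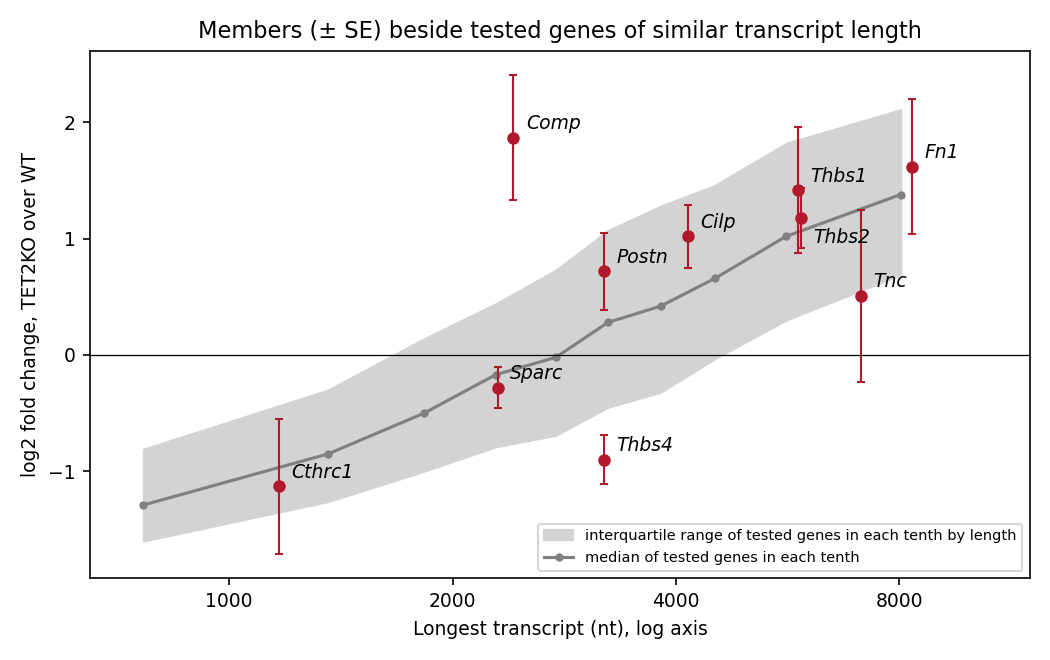
Log2 fold change of TET2KO over WT (with SE for the members, red) against the longest transcript length on a log axis, with the median (line) and interquartile range (grey) of all tested genes in each of 10 length groups. Comp (1.87) lies above and Thbs4 (-0.90) below the grey band at their lengths, and Tnc (0.51) is below the lower quartile of its length group (0.69). The length groups take no account of GC content.

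Of the 10 members, 7 had an adjusted p under 0.05 in the authors' deposited table, against 65.0% of the tested genes. The authors' deposited table gives log2 fold changes of 1.82 for Comp, 1.56 for Fn1, 1.37 for Thbs1, 1.12 for Thbs2 and 0.96 for Cilp. For Thbs4 and Sparc the authors' deposited table gives -0.96 and -0.34 (adjusted p = 0.00017 and 0.038). Sparc is thus the member on which the call differs between that table and the edgeR fit.

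Other matricellular genes were compared from a list of 25, of which 22 were tested. Of these, 11 rose, 3 fell and 8 missed the threshold in the libraries labelled TET2KO, and after trend removal 8 were higher and 4 lower. For this and the following lists, the shares over all tested genes were 33.4% higher and 29.4% lower as counted. After trend removal they were 21.9% higher and 24.3% lower. The 3 with the smallest p were Fbln1, Sparcl1 and Ecm1. Fbln1, which encodes the fibronectin-binding protein fibulin-1, had 51.5, 25.9 and 50.6 CPM in libraries labelled TET2KO against 15.3, 14.4 and 14.2 CPM in libraries labelled WT. It rose by 1.54 ± 0.27 on the log2 scale (adjusted p = 0.0065) and by 0.46 ± 0.13 without the trend. Sparcl1, a close relative of Sparc, had 361, 178 and 313 CPM in libraries labelled TET2KO against 119, 121 and 93.0 CPM in libraries labelled WT (1.36 ± 0.28, adjusted p = 0.0068), and 1.47 ± 0.26 remained after trend removal. Ecm1, extracellular matrix protein 1, rose by 1.97 ± 0.42 (adjusted p = 0.0071, trend-removed 1.74 ± 0.36). Chosen after their values were seen, the CCN family genes Cyr61 and Ctgf, known targets of YAP and TEAD factors, were higher by 0.94 ± 0.27 and 0.91 ± 0.25 (adjusted p = 0.019 and 0.016). Their trend-removed values were 1.19 ± 0.28 and 1.10 ± 0.23 (adjusted p = 0.0093 and 0.0067).

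Receptors for these proteins had 7 higher, 3 lower and 11 not past the test of 21, and 3 higher and 3 lower after trend removal. So 10 of 21 passed as counted, against 62.9% of all tested genes. With the trend removed 6 passed, against 46.2% of all genes. Cd47, the receptor of thrombospondin-1 on many cells, fell to 54.3, 77.6 and 60.3 CPM in libraries labelled TET2KO, against 148, 118 and 145 CPM in libraries labelled WT. Its log2 fold change was -1.10 ± 0.20 (adjusted p = 0.0065) and its trend-removed value -1.31 ± 0.18. Itgb5, a chain of the integrin that binds periostin and vitronectin, rose by 1.58 ± 0.29 (adjusted p = 0.0065, trend-removed 0.36 ± 0.12). Itga3, an integrin chain that binds laminins and thrombospondin-1, rose by 2.06 ± 0.38 as counted (adjusted p = 0.0065) and stood at 0.13 ± 0.22 after trend removal (adjusted p = 0.65).

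Regulators of TGF-beta and mechanical signalling had 13 higher, 1 lower and 6 not past the test of 20, and 2 higher and 2 lower after trend removal. That is 14 of 20 past the test as counted, against 62.9% of all tested genes. With the trend removed 4 passed, against 46.2% of all genes. Srf, the factor that drives myofibroblast contractile genes, stood at 1.45 ± 0.22 (adjusted p = 0.0065) and at 0.07 ± 0.11 without the trend. Ski, whose protein holds SMAD-driven transcription down, was higher by 3.56 ± 0.66 as counted and by 1.54 ± 0.33 after trend removal. Tgfbr2, a TGF-beta receptor chain, was higher as counted (1.17 ± 0.24, adjusted p = 0.0067), and its trend-removed value of -0.36 ± 0.18 had the other sign and did not pass. Of 21 tested enzymes and inhibitors that cut, cross-link or protect matrix, 14 rose, 2 fell and 5 missed the threshold, and 8 were higher and 3 lower after trend removal. Timp3, a matrix-bound metalloprotease inhibitor, had 106, 85.7 and 126 CPM in libraries labelled TET2KO against 34.7, 43.3 and 48.4 CPM in libraries labelled WT (1.33 ± 0.21, adjusted p = 0.0065, trend-removed 0.79 ± 0.17). Tgm2, the transglutaminase that cross-links fibronectin, rose by 1.85 ± 0.30 (trend-removed 0.44 ± 0.12). Adamts7, a metalloprotease that cleaves COMP, rose by 2.47 ± 0.43 as counted (adjusted p = 0.0065) and stood at 0.42 ± 0.23 after trend removal (adjusted p = 0.16).

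**Figure D5:**
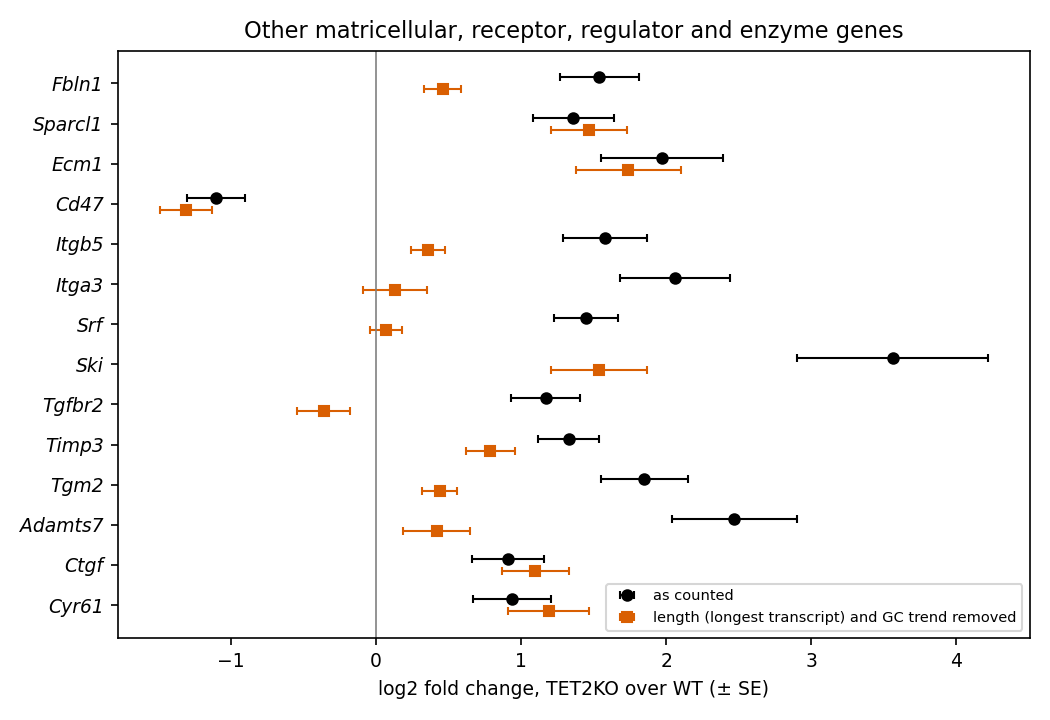
Log2 fold changes of TET2KO over WT with SE (horizontal axis) for 3 genes from each of 4 lists, plus Ctgf and Cyr61, as counted (black) and with the length and GC trend removed (orange). With the trend removed Sparcl1 stands at 1.47, Ecm1 at 1.74 and Cd47 at -1.31, while Srf, Itga3 and Tgfbr2 stand at 0.07, 0.13 and -0.36.

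Markers of cells that make these proteins were summed per library, and again without the most abundant gene of each list, a comparison added after the values were seen. Fibroblast markers summed to 2470, 2110 and 2470 CPM in libraries labelled TET2KO, against 2320, 2220 and 2310 CPM in libraries labelled WT. Without Gsn, the actin-severing gelsolin, the sums were 1460, 1280 and 1420 CPM in TET2KO against 1710, 1580 and 1670 CPM in WT. Of 13 fibroblast markers 6 were higher and 6 lower, and after trend removal 2 were higher and 3 lower. The shares of all tested genes past the test, 62.9% as counted and 46.2% after trend removal, stand beside every marker list. Col1a1 and Col1a2, the type I collagen chains, were higher (3.80 ± 0.77 and 1.79 ± 0.52), and Dcn and Lum, the small proteoglycans decorin and lumican, lower (-0.79 ± 0.22 and -0.64 ± 0.16). Without the trend these 4 stood at 1.29 ± 0.35, -0.14 ± 0.22, 0.18 ± 0.10 and 0.17 ± 0.13.

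Myofibroblast and smooth muscle markers summed to 2420, 2100 and 2420 CPM in TET2KO against 1540, 1600 and 1900 CPM in WT, most of it desmin (Des), which heart muscle cells also make. Without Des the sums overlapped, at 359, 368 and 414 CPM in TET2KO against 302, 299 and 450 CPM in WT. Of the 10 markers 5 were higher and 2 lower (3 and 2 after trend removal). Acta2, the smooth muscle actin of myofibroblasts, did not pass (-0.08 ± 0.30). Myh11, Lmod1, Smtn, Lrrc15 and Des were higher as counted. Myh11 stood at 3.54 ± 0.65 (trend-removed 1.63 ± 0.34) and Lmod1 at 1.90 ± 0.40 (trend-removed 0.87 ± 0.28). Tagln (-1.25 ± 0.25, trend-removed -0.71 ± 0.16) and Fap (-1.21 ± 0.25, trend-removed -0.52 ± 0.17) were lower. Endothelial markers summed to 1050, 562 and 871 CPM in TET2KO against 569, 523 and 514 CPM in WT, with 7 of 10 higher and 3 lower (5 and 1 after trend removal). Without Egfl7, which was lower, they summed to 971, 419 and 769 CPM in TET2KO against 313, 303 and 238 CPM in WT. Pecam1 was higher by 1.41 ± 0.23 (trend-removed 1.03 ± 0.16) and Cdh5 by 3.40 ± 0.53 (trend-removed 2.47 ± 0.36). The lower ones were Egfl7, Emcn and Cldn5 as counted, and Egfl7 after trend removal. Cardiomyocyte markers, which define the labelled tissue, summed to 58900 to 62100 CPM in libraries labelled TET2KO and 78000 to 95700 CPM in libraries labelled WT, with 5 of 10 higher and 4 lower (5 and 2 after trend removal). Without the myosin light chain gene Myl2 these sums overlapped, at 44600 to 52500 CPM in TET2KO against 51200 to 59200 CPM in WT.

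Platelet markers, set beside Thbs1, summed to 15.5 to 22.4 CPM in libraries labelled TET2KO and 42.9 to 62.6 CPM in libraries labelled WT. Without Pf4 they summed to 4.34, 3.50 and 3.21 CPM in TET2KO against 21.5, 12.1 and 3.30 CPM in WT, where WT replicate 3 fell within the TET2KO range. Of 10 platelet markers 5 were tested, with 1 higher and 4 lower, and 1 higher and 1 lower after trend removal. Pf4, platelet factor 4, fell by 1.33 ± 0.22 on the log2 scale (trend-removed -0.02 ± 0.12). Ppbp, another platelet chemokine, fell by 2.99 ± 0.92 (trend-removed -1.82 ± 0.84), and its 7.58 and 3.27 CPM in WT replicates 1 and 2 stood apart from 0.336 CPM in WT replicate 3. Gp1ba, a chain of the platelet receptor for von Willebrand factor, rose by 1.93 ± 0.63 (adjusted p = 0.029, trend-removed 1.81 ± 0.58). It rests on 74, 22 and 36 reads in TET2KO against 8, 13 and 1 in WT. Gp1bb and Gp9, of the same list, were too low to be tested. Their reads summed to 19 and 7 in TET2KO against 26 and 81 in WT.

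Macrophage markers summed to 281 to 422 CPM in TET2KO against 659 to 787 CPM in WT, with 3 of 10 higher and 3 lower (1 and 3 after trend removal). Most of that difference was Lyz2, a lysozyme gene, with 119, 276 and 165 CPM in TET2KO against 611, 497 and 595 CPM in WT. The other 9 summed to 146 to 162 CPM in TET2KO against 162 to 177 CPM in WT. As counted, Cd68, Csf1r and Cd163 were higher, and C1qb and Fcgr1 were lower, as was Lyz2. After trend removal Cd68 was higher, and Lyz2, Mrc1 and Fcgr1 were lower. Tendon and cartilage markers, set beside Comp and Cilp, summed to 21.5 to 26.1 CPM in TET2KO against 34.5 to 54.8 CPM in WT. Scx, a transcription factor of tendon, had 8.71, 19.0 and 16.2 CPM in TET2KO against 35.6, 28.0 and 50.6 CPM in WT, and without it the sums overlapped, at 3.84 to 12.8 CPM in TET2KO against 4.26 to 8.21 CPM in WT. The tendon gene Tnmd was at or below 0.336 CPM in every library, and 6 of the 10 markers stayed below 1 CPM in all 6 libraries. Of 4 tested markers 1 passed the test, Scx, and it was lower. Hepatocyte markers, set beside Fn1, which liver secretes into plasma, summed to 10.8 to 13.3 CPM in TET2KO against 11.6 to 15.8 CPM in WT, with Alb at no more than 0.0953 CPM. The part of these marker shifts in the members' values was not tested.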

How the data were processed

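Poly(A) RNA of 6 mouse hearts was sequenced in read pairs (150 nt per end) under 1 batch label, per the labels. Trimmomatic 0.36, STAR 2.5.2b, Subread 1.5.2 with featureCounts, DESeq2 and the builds GRCm38 and mm10 are listed without roles in the submitters' processing notes. Neither annotation release nor strand setting is stated there. Per Ensembl gene, the authors deposited raw counts and TPM. The lengths implied by the deposited counts and TPM lay within 5% of GENCODE M21 merged exon length for 83.8% of 10988 genes with at least 100 reads, after scaling to their median, in 1 library. Their deposited comparison tables give log2 fold changes (TET2KO over WT) with raw and adjusted p-values, and a normalised signal, the counts divided by 1 size factor per library (per the file headers and values).

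The main test was edgeR 4.0.16 (R 4.3.3): quasi-likelihood F-test, robust, TMM, filterByExpr, group as the only term, Benjamini-Hochberg adjustment over all tested genes, threshold 0.05. Each standard error was worked back from F (fold change divided by its root). The trend-removed fit used per-library offsets from a smooth surface on log2 longest transcript length and GC content (mgcv 1.9.3, basis size 6 per axis, prior count 2). That surface also takes out real differences that follow length or GC. Which fit lies closer to the true changes was not tested. Alternatives used limma 3.58.1 and DESeq2 1.42.0, other scalings, no filter, a replicate block and leaving out each library. Counts differed beyond sampling noise between all replicates. Every column of per-sample values was matched to a library. The members and gene lists were chosen with earlier results of these data known. Genes named by rule were the 10 members, Tet2, Thbs3 and the 3 genes with the smallest p past the test in each of 4 lists. Cyr61, Ctgf, Angptl4, Aspn, Ogn, Tnxb and Mmp2 fall outside that rule and were picked with their values known. Cell type markers were named in part by their place in the list and in part by their values. Positions are GRCm38 (GENCODE M21).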

Additional observations from a re-analysis of the deposited data

How the results depend on the processing

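Thbs4 was below 0 in 23 of 23 alternatives and past the test in 20 of them (-1.72 to -0.23), Comp above 0 in 23 and past the test in 10 (0.67 to 2.30), and Thbs2 above 0 in 23 and past the test in 15. The number of members past the test was 6 as counted, 3 with limma-voom, 3 with the replicate block and 2 with the trend removed. It was 3 with the replicate block and the trend removed and 3 with merged exon length in the trend. Without 1 library it was 2 to 9, and 1 to 4 after trend removal. Over all genes 9037 of 14370 passed as counted, 8878 with limma-voom and 7618 with the replicate block. Of 14341 genes in the trend fits, 6623 passed with the trend removed, 5722 with the block added and 7229 with merged exon length. All genes were not counted for trend removal without 1 library. The members' median log2 fold change was 1.43 on log2(TPM + 0.1), -0.083 with the trend removed, -0.059 with trend and replicate block and 0.038 with merged exon length. With the trend removed 4 TGF-beta regulators and 6 receptors passed, and with trend and replicate block 4 regulators, 4 receptors, 10 enzymes and 5722 of all genes. On log2(TPM + 0.1) 16 receptors passed. Without 1 library the counts were 8 to 17 regulators, 6 to 18 other matricellular genes, 7 to 16 receptors, 11 to 18 enzymes and 6133 to 11178 of all genes. Signs turned for Fn1 (-0.48, -0.44 with the replicate block, -0.17 with merged exons, and -0.56, -0.31, -0.54, -0.19, -0.39 and -0.74 without TET2KO replicates 1, 2, 3 and WT replicates 1, 2, 3), Cilp (-0.064, -0.074 with the block, and -0.067, 0.015, -0.14, -0.066, -0.076 and -0.088 without the same libraries) and Tgfbr2 (-0.36, and -0.37 with the block), all after trend removal. Signs also turned for Tnc after trend removal (-1.46 with the block, -1.08 without TET2KO replicate 2, range -1.69 to -0.71 without 1 library), for Thbs1 after trend removal (-0.18 without TET2KO replicate 1, -0.16 without WT replicate 3, up to 0.51) and for Sparc on log2(TPM + 1) (0.35). The trend fits differ only in offsets that follow length and GC, and the cause of the trend was not tested. For the block, libraries that share a number did not deviate together (r = -0.231 to 0.039). Correlations from 3 such pairs cannot exclude a shared origin, and the sample titles give only a replicate number. Alternatives with merged exon length, and trend removal without 1 library, were chosen after the data were seen. Tnc and Cthrc1 rest on 8 to 86 reads per library.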

Other observations

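Chosen after their values were seen, Angptl4 and Aspn, of the same list of other matricellular genes, were lower in the libraries labelled TET2KO. Angptl4, a lipoprotein lipase inhibitor that also binds matrix, had 9.87, 12.6 and 32.2 CPM in libraries labelled TET2KO, against 43.1, 33.2 and 64.3 CPM in libraries labelled WT (log2 fold change -1.36 ± 0.46, adjusted p = 0.033, trend-removed -1.71 ± 0.43). Aspn, the proteoglycan asporin, had 37.6, 78.4 and 53.9 CPM in TET2KO against 112, 124 and 117 CPM in WT, without overlap (-1.05 ± 0.26, adjusted p = 0.011), and its trend-removed value was 0.06 ± 0.13. Ogn, the proteoglycan osteoglycin, was also chosen after its values were seen. It did not pass as counted (-0.27 ± 0.20, adjusted p = 0.26) and passed after trend removal at 0.83 ± 0.13.

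Tnxb and Mmp2 were likewise chosen after their values were seen. Tnxb encodes tenascin-X, a relative of Tnc. It had 44.7, 11.8 and 40.6 CPM in libraries labelled TET2KO and 19.2, 13.1 and 15.1 CPM in libraries labelled WT. Its log2 fold change of 1.04 ± 0.45 did not pass as counted (adjusted p = 0.074), and its trend-removed value of -1.35 ± 0.20 passed. The trend-removed value of Tnc was close to this, at -1.39 ± 0.51, and did not pass. The gelatinase gene Mmp2 had 49.7, 11.1 and 40.4 CPM in TET2KO against 5.28, 4.78 and 4.76 CPM in WT (2.77 ± 0.50, adjusted p = 0.0065) and passed after trend removal at 1.86 ± 0.36.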
